A study of Mus musculus with 18 samples.

Results

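The 10 genes described here organise lymphoid tissue: the chemokines Cxcl13, Ccl19 and Ccl21a, their receptors Cxcr5 and Ccr7, the lymphotoxin subunits Lta and Ltb, the complement receptor Cr2, the mucosal addressin Madcam1 and the venule mucin Glycam1. They were chosen by gene symbol in a table of counts of unique molecular identifiers (UMIs, tags that mark single captured RNA molecules). The 10 symbols took up 12 of the table's 25651 rows, because Ccl19 and Ccl21a each have another row on an unplaced scaffold. Each library came from the snap-frozen pancreas of 1 mouse aged 20 weeks, from a mixed strain background of 129Sv and C57BL/6. There were 5 mice labelled KPC ASC KO, 7 labelled KPC and 6 wild type (WT). The name KPC commonly stands for mice that develop pancreatic cancer from mutations introduced in the pancreatic epithelium. The labels do not spell out its alleles or Cre driver, nor how and in which cells ASC, the inflammasome adaptor encoded by Pycard, was removed. Sex, litter and histology are not in the labels, and the alleles of WT mice are not stated.

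CXCL13, made by follicular stromal cells, draws B cells and follicular helper T cells through CXCR5, while CCL19 and CCL21 draw naive lymphocytes and mature dendritic cells through CCR7. Lymphotoxin, a membrane complex of the Lta and Ltb products on lymphocytes, signals through the lymphotoxin beta receptor and the noncanonical NF-kB pathway, and keeps stromal cells making these chemokines. High endothelial venules carry addressins that let lymphocytes leave the blood. The same genes are used in lymph nodes and in tertiary lymphoid structures, the aggregates that form in inflamed organs and tumours, and pancreatic lymph nodes lie against the gland.

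The promoters of 3 members are printed. They were taken from the members that hold the pattern marked below, so that all 3 hold it follows from the choice. Cr2 and Lta hold it as well and are not printed. Genes of this kind are known to be driven by NF-kB proteins, which was not tested here. The 3 printed members moved together across the mice, but so did Ccl19 and Ccl21a, which are not printed. The windows are the 150 bases before the RefSeq start site (GRCm38.p6, plus strand) of Cxcl13 at chr5:95956789-95956938, Ltb at chr17:35194357-35194506 and Madcam1 at chr10:79664409-79664558. Capitals mark each match to GGG followed by any 5 bases and CC, a loose form of the kappa B site, on either strand, with overlapping matches merged.
Cxcl13: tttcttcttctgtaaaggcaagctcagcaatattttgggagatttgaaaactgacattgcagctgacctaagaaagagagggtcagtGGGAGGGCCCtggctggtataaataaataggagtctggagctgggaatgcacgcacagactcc
Ltb: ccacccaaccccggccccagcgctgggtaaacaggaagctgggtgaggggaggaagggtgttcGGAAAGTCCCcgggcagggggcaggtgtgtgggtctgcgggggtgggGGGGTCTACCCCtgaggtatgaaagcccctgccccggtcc
Madcam1: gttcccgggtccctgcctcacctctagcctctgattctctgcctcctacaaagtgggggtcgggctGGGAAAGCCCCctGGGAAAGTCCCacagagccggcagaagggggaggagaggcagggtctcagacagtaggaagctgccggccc
Of the members, 8 had a promoter entry, and 6 of these 8 (75.0%) held the pattern somewhere in the 300 bases from 250 before to 50 after the start. Ccl21a and Glycam1 did not hold it, and Ccl19 held it only outside the 150 bases before the start. Of all 32851 mouse promoters of that length, 16686 (50.8%) held it. A match is a description of letters and not a binding site.

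Library totals ran from 374432 to 647947 counts in KPC ASC KO mice, from 452472 to 1626977 in KPC mice and from 294077 to 416879 in WT mice. Pycard had 12, 7, 6, 3 and 5 counts in KPC ASC KO mice 318, 335, 377, 384 and 388, against 23 to 166 in KPC mice and 9 to 19 in WT mice. As CPM (counts scaled to a common library size) after scaling by the trimmed mean of M values (TMM) it averaged 19.9 ± 11.7 in KPC ASC KO mice (SD, n = 5), 70.0 ± 24.2 in KPC mice (SD, n = 7) and 58.6 ± 6.95 in WT mice (SD, n = 6). The 16 acinar enzyme genes, which define pancreatic tissue, summed to 189000 to 681000 TMM CPM in KPC ASC KO mice, 15000 to 286000 in KPC mice and 417000 to 768000 in WT mice. The choice of scaling matters here, since the median log2 fold change of all tested genes in KPC against WT was 0.06 after TMM scaling and 1.41 when libraries were scaled by their total counts. Levels below are TMM CPM unless total counts are named. In bulk samples, fewer cells of a type and less RNA per cell cannot be told apart.

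The members were highest in 4 KPC mice, numbers 40, 89, 145 and 154. In 11 of the 12 rows these mice held the 4 highest KPC levels, and in 10 of the 12 rows they exceeded all 14 other mice. The exceptions were the scaffold row of Ccl21a and, against the other groups, Glycam1. KPC mouse 43 was the lowest KPC mouse in 10 of the 12 rows. Because the 4 mice stood apart from the other 3 KPC mice, the results that turn on them are given with and without them. They were picked for their levels, so the values without them show only how far a group mean depends on them.

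**Figure D1:**
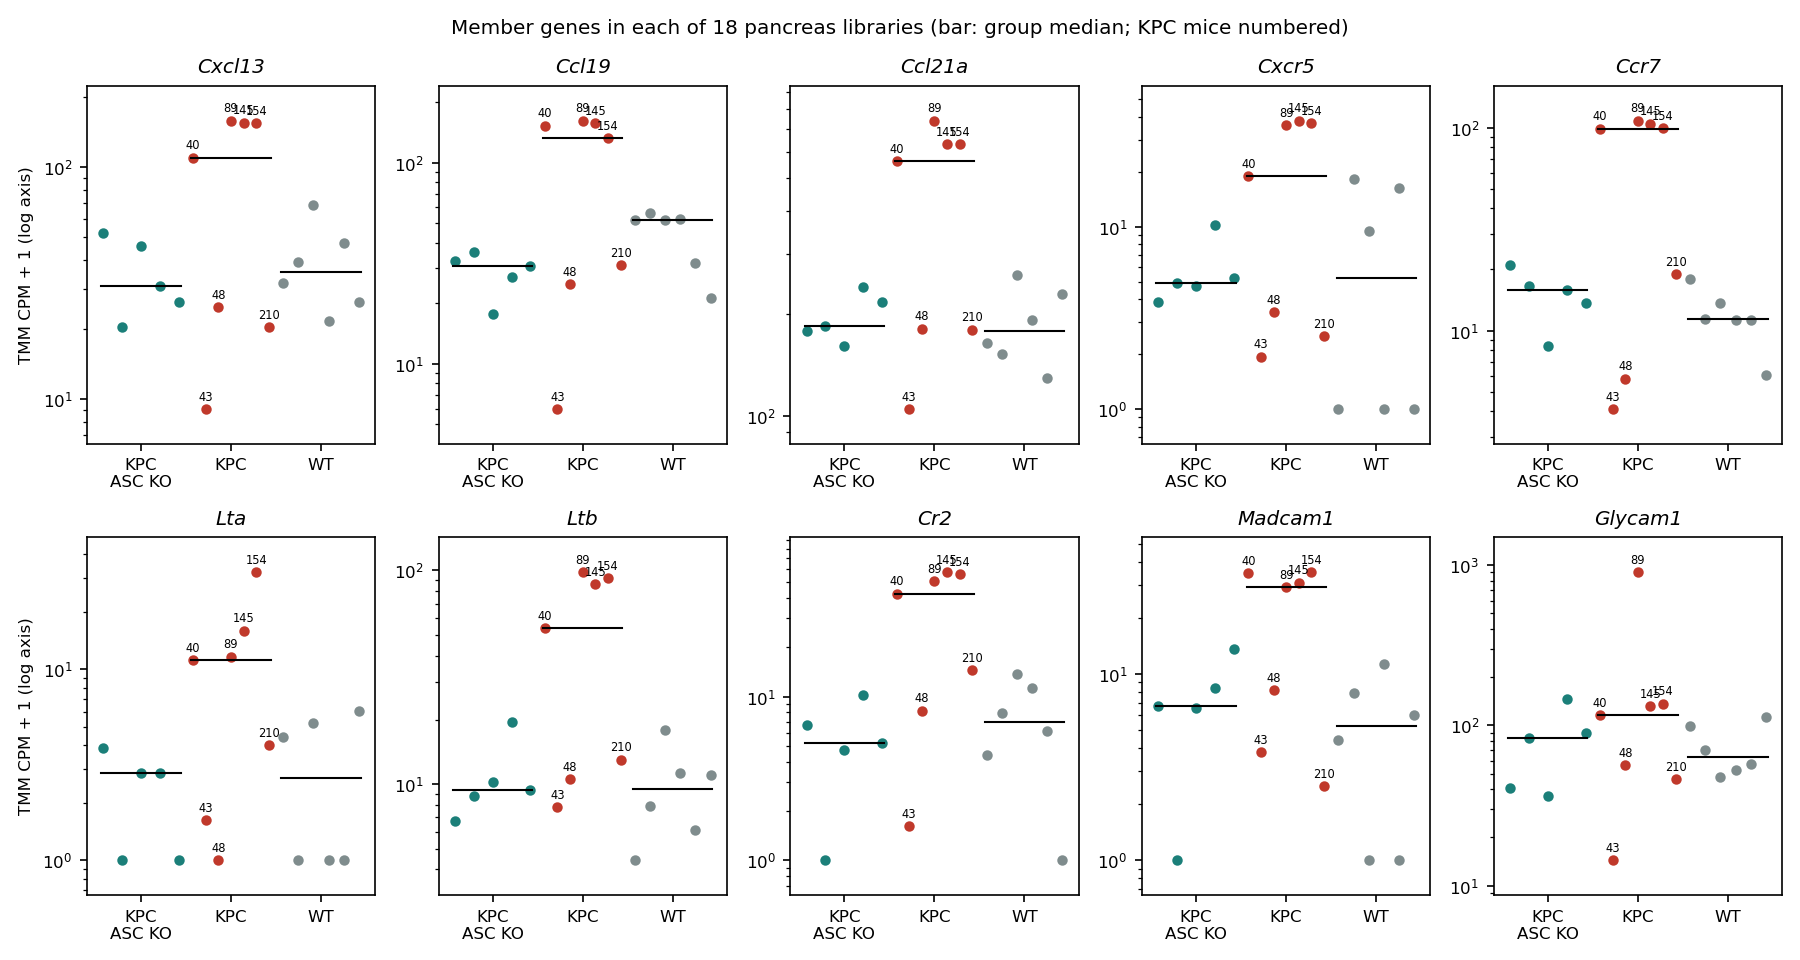
Levels of the 10 genes in every mouse, with TMM CPM plus 1 on a log axis, KPC ASC KO mice at the left, KPC mice (numbered) in the middle and WT mice at the right. Each point is 1 mouse and the bar is the group median, and KPC mice 40, 89, 145 and 154 sit above the other 3 KPC mice in every panel.

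Cxcl13 (chr5:95956951-95961068, GRCm38) encodes the B cell chemokine of the follicle. It stood at 51.3, 19.5, 44.5, 29.7 and 25.3 TMM CPM in KPC ASC KO mice 318, 335, 377, 384 and 388. In KPC mice it ran from 8.08 over a median of 109 to 158 TMM CPM, against 20.6, 34.3 and 67.8 in WT mice. All 4 KPC mice named above exceeded every other mouse, while KPC mice 43, 48 and 210 had 8.08, 24.0 and 19.5 TMM CPM. The first and last of these lay below the lowest WT mouse. By total counts KPC mice 43 and 210, at 16.0 and 25.1 CPM, lay within the WT range of 12.5 to 52.6.

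Ccl19 (chr4:42754525-42756577), a CCR7 ligand of the T cell zone, had 31.3, 35.2, 16.7, 26.0 and 29.6 TMM CPM in the KPC ASC KO mice in the same order. KPC mice ran from 4.97 over a median of 131 to 161 TMM CPM, and WT mice from 20.2 over 51.0 to 55.2. The KPC ASC KO mice lay inside or below the range of WT mice, and 4 of 7 KPC mice lay above it. The scaffold row of Ccl19 summed to 6 counts in KPC ASC KO mice, 98 in KPC mice and 1 in WT mice.

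Ccl21a (chr4:42772860-42773993), the CCR7 ligand of stromal cells, lymphatic endothelium and, in mice, high endothelial venules, was at 177, 184, 160, 239 and 215 TMM CPM in the KPC ASC KO mice. Its level ran from 104 over a median of 562 to 739 TMM CPM in KPC mice and from 128 over 177 to 259 in WT mice. KPC mice 48 and 210 had 180 and 179 TMM CPM, within the WT range, and KPC mouse 43, at 104, lay below it. This depended on the scaling: by total counts KPC mice 43 and 210, at 206 and 229 CPM, lay above the highest WT mouse, at 201. KPC ASC KO and WT mice overlapped throughout.

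The Ccl21 genes form a cluster of near-identical copies, so that reads can be split between rows. The coding sequence of Ccl21b in GENCODE M21 differed from Ccl21a at 2 of 402 bases, T84A and C194T, with positions counted from the first base of the start codon and the Ccl21a base given first. The 41 coding bases around each difference are shown, from genes on chromosome 4, with the base that differs in capitals.
Ccl21a at 84: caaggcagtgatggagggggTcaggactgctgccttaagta
Ccl21b at 84: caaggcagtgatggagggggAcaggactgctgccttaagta
Ccl21a at 194: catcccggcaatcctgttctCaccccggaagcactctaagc
Ccl21b at 194: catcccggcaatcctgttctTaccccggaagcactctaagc
Over all mice, 8 rows of Ccl21 copies held 7296 counts, of which the Ccl21a row took 70.1% and a Ccl21b row on another scaffold 18.5%. The share of the Ccl21a row ran from 58.1% to 70.5% in KPC ASC KO mice, from 45.8% to 79.8% in KPC mice and from 52.1% to 80.4% in WT mice. KPC mice 43, 48 and 210 had 48.9%, 53.2% and 45.8%, all under the 73.1% to 79.8% of the other 4 KPC mice. Whether the split between rows follows expression or the assignment of reads was not tested, and the copies are therefore also given as a sum.

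Cxcr5 (chr9:44511787-44561877), the receptor for CXCL13, was measured on few counts, 10 in all KPC ASC KO mice, 207 in KPC mice and 10 in WT mice. Its level was 2.85, 3.91, 3.71, 9.27 and 4.22 TMM CPM in the KPC ASC KO mice. KPC mice ran from 0.933 over a median of 18.0 to 37.3 TMM CPM, and WT mice from 0 over 4.24 to 17.2. The 4 KPC mice were at 18.0 or more and all others at 17.2 or less, and the WT values, 3 of them 0, rest on at most 5 counts per mouse.

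Ccr7 (chr11:99144196-99155077), the receptor for CCL19 and CCL21, had 20.0, 15.6, 7.42, 14.8 and 12.7 TMM CPM in the KPC ASC KO mice. KPC mice ran from 3.11 over a median of 97.7 to 107 TMM CPM and WT mice from 5.05 over 10.3 to 17.0. The 4 KPC mice lay within 97.7 to 107, KPC mouse 210 at 18.0, and KPC mice 43 and 48 below every WT mouse. All but 1 KPC ASC KO mouse lay within the WT range.

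Ltb (chr17:35194439-35196320) anchors the lymphotoxin complex in the membrane. It had 5.70, 7.81, 9.28, 18.5 and 8.44 TMM CPM in the KPC ASC KO mice, on 21 counts in all. KPC mice ran from 6.84 over a median of 52.8 to 97.2 TMM CPM on 553 counts, and WT mice from 3.40 over 8.50 to 17.0 on 12 counts. KPC mice 43, 48 and 210 lay within the WT range. By total counts KPC mice 43 and 210, at 13.5 and 15.4 CPM, lay above the highest WT mouse, at 13.2.

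Lta (chr17:35203165-35205351), the soluble and bridging subunit, was captured rarely, with 3 counts over the KPC ASC KO mice, 109 over the KPC mice and 3 over the WT mice. In KPC mice 40, 89, 145 and 154 it had 9, 20, 24 and 52 counts, and in KPC mice 43, 48 and 210 it had 2, 0 and 2. No KPC ASC KO or WT mouse had more than 1 count, and a count of 0 in a library allows up to 3 counts, or 4.63 to 8.01 CPM by total counts in KPC ASC KO libraries and 7.20 to 10.2 in WT libraries.

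Cr2 (chr1:195136811-195176716), the complement receptor of mature B cells and follicular dendritic cells, summed to 10 counts in KPC ASC KO mice, 327 in KPC mice and 9 in WT mice. Its level was at most 9.27 TMM CPM in KPC ASC KO mice and 12.7 in WT mice, while the 4 KPC mice were at 41.6 to 56.5. KPC mouse 210 followed with 13.5 TMM CPM, above all WT mice, and KPC mouse 43 had 0.622 TMM CPM.

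Madcam1 (chr10:79664559-79668537), the addressin of mucosal venules that binds the integrin alpha4 beta7, summed to 12 counts in KPC ASC KO mice, 201 in KPC mice and 6 in WT mice. The KPC ASC KO mice had 5.70, 0, 5.57, 7.42 and 12.7 TMM CPM. The 4 KPC mice were at 28.2 to 34.2 TMM CPM, the other 3 KPC mice at 1.50 to 7.20, and WT mice at 0 to 10.3. Only those 4 KPC mice stood outside the range of the other groups.

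Glycam1 (chr15:103562759-103565081) encodes a secreted mucin of high endothelial venules that serves lymphocyte homing, and is also made by mammary epithelium. Its level was 39.9, 82.0, 35.2, 145 and 88.7 TMM CPM in the KPC ASC KO mice. KPC mice ran from 13.4 over a median of 115 to 902 TMM CPM, and WT mice from 46.6 over 62.7 to 111. A single library, KPC mouse 89 with 1697 counts, stood apart from the other KPC mice, which were at 135 TMM CPM or less, and KPC ASC KO mouse 384 exceeded those 6 KPC mice.

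The question put to KPC against WT was how the members differ in mice with the tumour genotype. Ccl21a and Ccr7 were called higher in KPC mice, and the other 3 members that could be tested, Cxcl13, Ccl19 and Glycam1, did not pass. In a comparison where edgeR's quasi-likelihood test with Benjamini-Hochberg adjustment called 1023 of 6920 genes (14.8%) higher and 1047 (15.1%) lower, 2 of 5 tested members were called higher. Only these 5 rows passed the filter on low counts, and 7 rows, those of Ltb, Lta, Cr2, Cxcr5, Madcam1 and the scaffolds, did not. Ccr7 passed it only through KPC mice: it reached the filter's level of 21.4 CPM by total counts in KPC mice 40, 89, 145, 154 and 210, just the 5 libraries needed, and in no KPC ASC KO or WT mouse. It could be tested only because it was high in KPC mice, so its call and the count of 2 in 5 are given as a description.

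Ccr7 averaged 61.9 ± 50.1 TMM CPM in KPC mice (SD, n = 7) and 10.9 ± 3.90 in WT mice (SD, n = 6), and its log2 fold change was 2.48 (SE 0.84, edgeR adjusted p = 0.0352). Ccl21a averaged 432 ± 266 TMM CPM in KPC mice and 187 ± 49.1 in WT mice, a log2 fold change of 1.22 (SE 0.40, edgeR adjusted p = 0.0296). In both genes 4 of 7 KPC mice or more exceeded all WT mice, but the groups overlapped, and the SD in KPC mice was several times that in WT mice. When libraries were scaled by total counts all 5 tested members were called higher, with log2 fold changes of 2.48 to 3.85, but so were 5508 of 6920 genes, against 176 called lower. No member separated the groups fully, against 3.77% of tested genes with every KPC mouse above every WT mouse.

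For Cxcl13 the log2 fold change was 1.25 (SE 0.64, edgeR adjusted p = 0.153), with means of 89.5 ± 69.8 TMM CPM in KPC mice and 38.1 ± 17.2 in WT mice. For Ccl19 it was 1.12 (SE 0.63, edgeR adjusted p = 0.197), with 94.1 ± 70.7 TMM CPM in KPC mice and 43.3 ± 14.3 in WT mice. For Glycam1 it was 1.48 (SE 0.81, edgeR adjusted p = 0.182), and without KPC mouse 89 it was 0.23.

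Both calls rested on the 4 KPC mice. Without them Ccl21a had a log2 fold change of -0.27 (edgeR adjusted p = 0.477) and Ccr7 no longer passed the filter on low counts. Cxcl13 then stood at -1.34 (edgeR adjusted p = 0.0397) and Ccl19 at -1.40 (edgeR adjusted p = 0.0457), lower in the 3 remaining KPC mice than in WT mice. That direction depended on the scaling: with total counts and the same 3 mice, Cxcl13 stood at -0.22 and Ccl19 at -0.30, neither called, and Ccl21a at 0.81 (edgeR adjusted p = 0.0327). Leaving out KPC mouse 43 instead brought Cxcl13 to 1.50 and Ccl19 to 1.37, both then called (edgeR adjusted p = 0.0244 and 0.017). The call of Ccr7 was lost without any one of the 6 WT mice, and that of Ccl21a without WT mice 69, 1197 or 1237 or KPC mice 89, 145 or 154 (highest edgeR adjusted p 0.067 and 0.0617). Without KPC mouse 40, 89, 145, 154 or 210 Ccr7 was not tested at all. With the compared groups fitted alone, Ccr7 was not tested and Ccl21a was not called (edgeR adjusted p = 0.0597), and a filter at 10 counts over all libraries ended the call of Ccr7 (edgeR adjusted p = 0.0581).

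**Figure D2:**
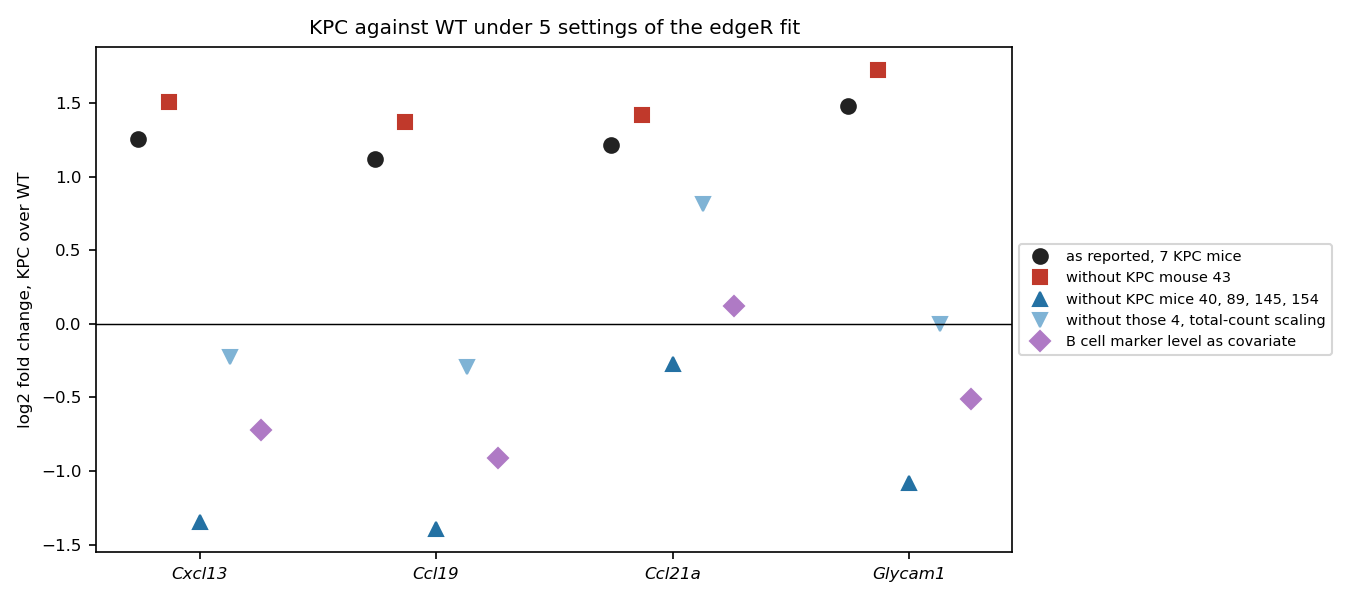
Log2 fold change of Cxcl13, Ccl19, Ccl21a and Glycam1 in KPC over WT mice (vertical axis) under 5 settings of the edgeR fit, 1 symbol per setting. The circles (all 7 KPC mice) and squares (without mouse 43) lie above 0, and the upward triangles (without mice 40, 89, 145 and 154) lie below 0.

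For the 7 rows under the filter, an exact two-sided permutation test of mean log2(TMM CPM + 1) was run over 17363 genes. After adjustment it called none of the 12 member rows in any comparison; it called 8.29% of genes higher in KPC mice. Before adjustment Ltb (p = 0.0326, exact permutation) and the Ccl19 scaffold row (p = 0.0175, exact permutation) were higher in KPC mice, 2 of 12 rows, where 21.9% of all genes were. Fitted without a filter, edgeR called Ltb (log2 fold change 2.76, SE 0.82, adjusted p = 0.0425), Madcam1 (2.38, SE 0.78, adjusted p = 0.047), Lta (2.41, SE 0.82, adjusted p = 0.0429) and the Ccl19 scaffold row (3.66, SE 1.00, adjusted p = 0.00652) higher in KPC mice, where 6.1% of 25651 genes were. It did not call Cr2 (2.50, adjusted p = 0.124) or Cxcr5 (1.65, adjusted p = 0.383), nor Ccr7 and Ccl21a (adjusted p = 0.0699 and 0.0519 in that edgeR fit).

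Against KPC mice, KPC ASC KO mice asked whether the loss of ASC goes with other levels of these genes in the tumour genotype. None of the 5 tested members was called, in a comparison where edgeR called 186 genes (2.69%) lower and 466 (6.73%) higher, and all 5 had a log2 fold change below 0. The values were -2.20 for Ccr7 (SE 0.80, edgeR adjusted p = 0.09), -1.83 for Ccl19 (SE 0.69, edgeR adjusted p = 0.103) and -1.15 for Ccl21a (SE 0.42, edgeR adjusted p = 0.0891). Cxcl13 stood at -1.38 (SE 0.65, edgeR adjusted p = 0.187) and Glycam1 at -1.37 (SE 0.82, edgeR adjusted p = 0.307). At an unadjusted p under 0.05, Ccr7, Ccl19, Ccl21a and Cxcl13 were lower in edgeR, as were 12.7% of tested genes. Ccr7 reached the filter's level in no KPC ASC KO mouse and was tested only because it was high in KPC mice. Its lower level in KPC ASC KO mice is therefore given as a description.

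With total counts all 5 were called lower, as were 5051 of 6920 genes, against 142 higher. DESeq2 called 3 of these members lower in KPC ASC KO mice: Ccr7 (adjusted p = 0.0244), Ccl19 (adjusted p = 0.0301) and Ccl21a (adjusted p = 0.0403), where it called 3.92% of genes lower. In this and the next counts Ccr7, tested only through KPC mice, is included as a description. Without KPC mouse 43, edgeR called 4 lower, Cxcl13, Ccr7, Ccl19 and Ccl21a, with 5.62% of genes. Without KPC mouse 48 it called Ccr7 and Ccl21a, with 5.58% of genes, and without KPC mouse 210 Ccl21a, with 4.38%. Without the 4 high KPC mice the log2 fold changes of the 4 members still tested were above 0, from 0.35 for Ccl21a to 1.24 for Cxcl13, with none called and 1 gene called in all. Without a filter on low counts edgeR called Lta lower (-2.79, SE 0.82, adjusted p = 0.0389), where 1.32% of genes were. The exact permutation test gave its smallest p for the Ccl21a scaffold row (p = 0.00253, exact permutation, adjusted 0.108), on a scale where 12.7% of genes were lower before adjustment and on 3 counts in KPC ASC KO mice and 72 in KPC mice.

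KPC ASC KO mice and WT mice were the closest pair. Here edgeR called 0% of 6920 genes, with 691 at an unadjusted p under 0.05, and DESeq2 called 8 genes. Among the members the log2 fold changes were -0.71 for Ccl19 (SE 0.79), 0.28 for Ccr7 (SE 1.11), -0.13 for Cxcl13 (SE 0.77), 0.11 for Glycam1 (SE 0.91) and 0.06 for Ccl21a (SE 0.44). By the exact permutation test only the Ccl19 scaffold row was higher before adjustment (p = 0.00866, exact permutation, adjusted 0.678), as were 3.39% of genes. These 2 comparisons of KPC ASC KO mice and that of KPC mice against WT mice share groups, so their values are not independent.

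**Figure D3:**
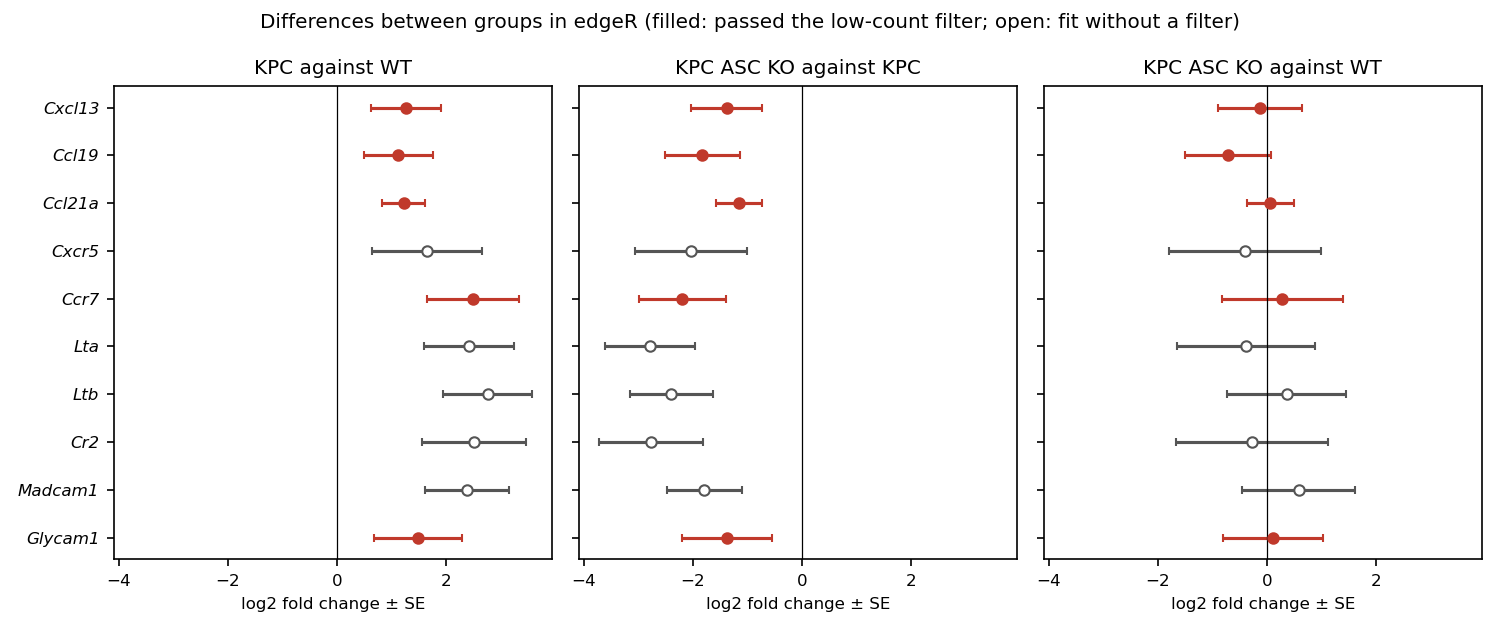
Log2 fold change with its standard error (horizontal axis) for the 10 genes in KPC against WT mice (left), KPC ASC KO mice against KPC mice (middle) and KPC ASC KO mice against WT mice (right). Filled points passed the low-count filter of edgeR and open points come from the fit without a filter; points lie above 0 in the left panel, below 0 in the middle panel and on both sides of 0 in the right panel.

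Summed over near-identical copies, Ccl21 was called higher in KPC than in WT mice and lower in KPC ASC KO than in KPC mice, and both calls rested on the 4 KPC mice. The sum of 8 rows ran from 251 to 376 TMM CPM in KPC ASC KO mice, from 213 to 1010 in KPC mice and from 247 to 343 in WT mice. Its log2 fold change was 1.09 in KPC against WT mice (SE 0.27, edgeR adjusted p = 0.00584), -1.04 in KPC ASC KO against KPC mice (SE 0.29, edgeR adjusted p = 0.0304) and 0.06 in KPC ASC KO against WT mice (SE 0.30, edgeR adjusted p = 0.979). The 4 KPC mice had 768 to 1010 TMM CPM, and KPC mice 43, 48 and 210 had 213, 338 and 390. Without the 4 mice the log2 fold change was 0.12 in KPC against WT mice (edgeR adjusted p = 0.739) and -0.05 in KPC ASC KO against KPC mice (edgeR adjusted p = 0.942). The 4 rows of Ccl19 copies gave 1.19 in KPC against WT mice (edgeR adjusted p = 0.178) and -1.69 in KPC ASC KO against KPC mice (edgeR adjusted p = 0.131). The summed rows were chosen after the data had been seen.

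Levels of lymphocyte markers moved with the members. The 15 B cell markers, which include the surface proteins Cd22 and Cd79a and the immunoglobulin chain Ighm, summed to 578 to 766 TMM CPM in KPC ASC KO mice, 232 to 3150 in KPC mice and 431 to 600 in WT mice. Ighm alone averaged 424.5 of a mean sum of 683.7 TMM CPM in KPC ASC KO mice, 865.4 of 1679 in KPC mice and 288.5 of 504.2 in WT mice. The B cell ratios and covariate below use these same markers. The 17 T cell markers summed to 98.3 to 217 TMM CPM in KPC ASC KO mice, 61.9 to 977 in KPC mice and 97.5 to 165 in WT mice. The 4 KPC mice high in the members were high in both sums. Of 11 tested B cell markers 5 rose in KPC mice, among them Cd22, a brake on the B cell receptor (log2 fold change 2.53, SE 0.81, edgeR adjusted p = 0.026), and Spib, a B cell transcription factor (2.11, SE 0.66, edgeR adjusted p = 0.0209). Of 3 tested T cell markers 1, the receptor chain Trbc1, rose (2.32, SE 0.77, edgeR adjusted p = 0.0314). Of these, 4 of the 5 B cell markers and Trbc1 passed the filter on low counts only with KPC libraries, so that they were tested because they were high there. The same holds for many of the genes called in the lists that follow, whose counts are descriptions for that reason. Of all 6920 tested genes, edgeR called 14.8% higher and 15.1% lower in KPC against WT mice. In KPC ASC KO against KPC mice it called 2.69% lower and 6.73% higher. Without the 4 mice neither any of the 3 B cell markers nor the 1 T cell marker still tested was called. That fit kept only 3 KPC mice, so a call lost in it does not show that a difference is gone. List counts from it, here and below, stand without the share of all its genes and are descriptions. The 14.8% and 2.69% given near them belong to the fit with every KPC mouse.

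Set against the lymphocyte markers of the same mouse, the chemokine counts of the 3 groups overlapped. Counts of Cxcl13, Ccl19 and Ccl21a per count of B and T cell markers ran from 0.272 to 0.361 in KPC ASC KO mice, from 0.237 to 0.576 in KPC mice and from 0.283 to 0.574 in WT mice. The 4 high KPC mice had 0.306, 0.306, 0.237 and 0.243, and KPC mice 43, 48 and 210 had 0.407, 0.576 and 0.357. Counts of Ltb on the same base ran from 0.0073 to 0.0189 in KPC ASC KO mice, from 0.0182 to 0.0272 in KPC mice and from 0.00546 to 0.0258 in WT mice. In this ratio KPC mice 43 and 48 lay among the 4 high KPC mice and KPC mouse 210, at 0.0182, just below them, on 4 to 22 Ltb counts in each of the 3.

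With the B cell level of each mouse as a covariate, an alternative chosen after the data had been seen, neither Ccr7 nor Ccl21a was called in KPC against WT mice (log2 fold change 0.07 and 0.12, edgeR adjusted p = 0.944 and 0.682). Ccl19 then stood at -0.91 (edgeR adjusted p = 0.0492) and Cxcl13 at -0.72 (edgeR adjusted p = 0.0881).

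**Figure D4:**
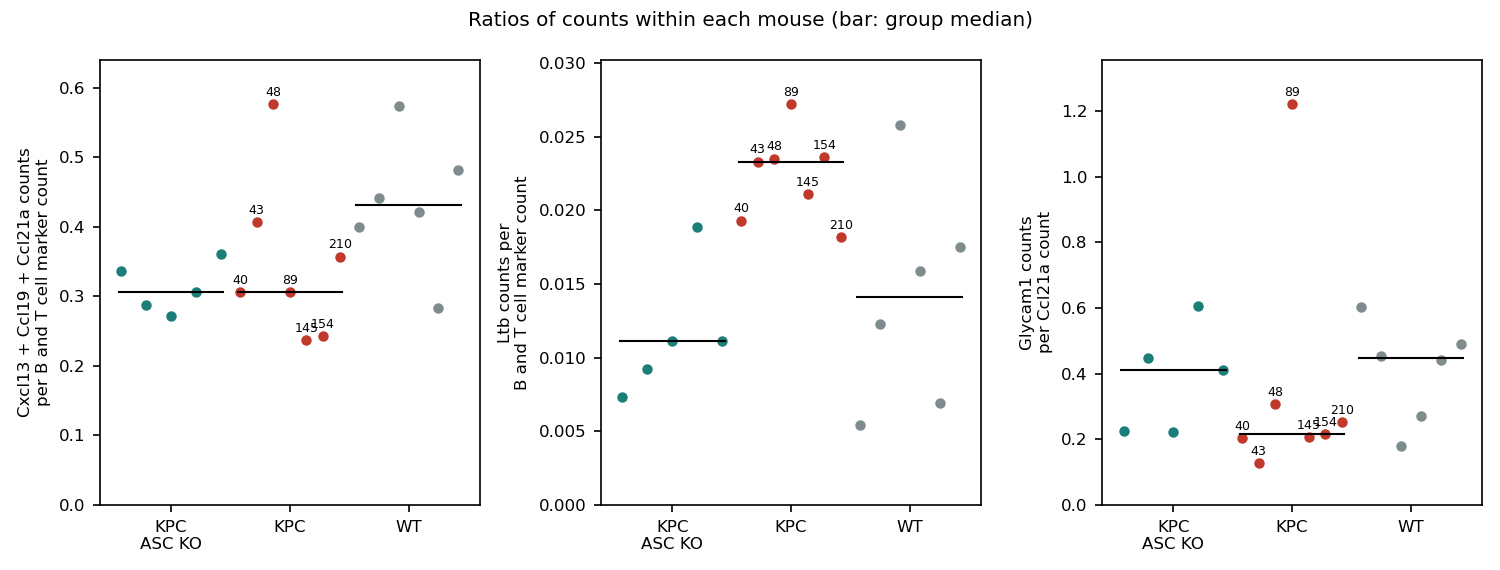
Ratios of counts within each mouse: chemokines per B and T cell marker count (left), Ltb per B and T cell marker count (middle) and Glycam1 per Ccl21a count (right), with KPC ASC KO mice left, KPC mice (numbered) in the middle and WT mice right in each panel. Each point is 1 mouse and the bar the group median; in the left panel the KPC mice span 0.237 to 0.576, and in the right panel mouse 89 stands at 1.22.

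Glycam1 did not follow Ccl21a and Madcam1 in 1 mouse. Counts of Glycam1 per count of Ccl21a ran from 0.221 to 0.605 in KPC ASC KO mice and from 0.18 to 0.604 in WT mice. In KPC mouse 89 the ratio was 1.22, and in the other 6 KPC mice 0.128 to 0.307. Counts of Madcam1, which shares its venules in mucosal lymphoid tissue, per count of Ccl21a were 0.0381 in mouse 89 and 0.0084 to 0.06 over all KPC mice. The venule genes Chst4 and Fut7, a fucosyltransferase of addressin synthesis, were also highest in mouse 89 among KPC mice, each with 17 counts or 9.03 TMM CPM, and had at most 5 and 7 counts in the other 6. Both were picked from a longer list after their values were seen. The level of Chst2, a sulfotransferase of that list, was not highest in mouse 89. It had 52 counts there, of 1020527 in the library, and 48 in KPC mouse 48, of 452472. The source of the Glycam1 RNA in mouse 89 was not tested.

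By the root-mean-square difference of centred log2(TMM CPM + 1) over 18 mice, the genes most like each tested member were mainly genes of lymphocytes and other leukocytes. Immunoglobulin and T cell receptor segments and genes with Gm or Rik names were left out of this ranking. Ccl19 was nearest to Ptprcap (0.428), Slpi (0.428), Ccl5 (0.455) and Cd79b (0.503), and Cxcl13 to the B cell gene Ms4a1 (0.57), Ptprc (0.577), AW112010 (0.584) and Ccl21a (0.607). Ccr7 was nearest to Jchain (0.518), Cd79b (0.579), Ms4a1 (0.59) and Pla2g2d (0.604). Ccl21a was nearest to Mfge8 (0.339), Nfkbia (0.387), AW112010 (0.396) and Lcp1 (0.403), and Glycam1 to Lef1 (0.653), AW112010 (0.763), Ccl21a (0.765) and Ccl5 (0.771). The median difference from all genes ranked was 1.36 for Ccl19 and 1.02 for Ccl21a. The mice share their libraries and depth in this measure.

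Of the lymphotoxin and NF-kB pathway, 7 of 11 tested genes rose in KPC mice and none fell, where 14.8% of all tested genes rose. The list median log2 fold change was 1.22, against 0.06 over all tested genes. Relb, the noncanonical subunit, averaged 74.1 ± 45.1 TMM CPM in KPC mice and 21.4 ± 6.00 in WT mice (log2 fold change 1.79, SE 0.45, edgeR adjusted p = 0.00535), and its precursor partner Nfkb2 rose too (1.46, SE 0.37, edgeR adjusted p = 0.00535). The subunits Rela (1.02, edgeR adjusted p = 0.00417) and Nfkb1 (1.03, edgeR adjusted p = 0.0181) rose, while the lymphotoxin beta receptor Ltbr averaged 46.6 ± 30.2 TMM CPM in KPC mice and 51.8 ± 26.9 in WT mice (edgeR adjusted p = 0.686). In KPC ASC KO against KPC mice 2 of the 11 fell, where 2.69% of all tested genes did. These were Relb (-1.51, SE 0.43, edgeR adjusted p = 0.0323) and the inhibitor of apoptosis Birc3 (-1.43, SE 0.42, edgeR adjusted p = 0.0337). Of the 7 that rose 5 passed the filter only with KPC libraries, Relb and Nfkb2 among them, as did both that fell. In the fit without the 4 KPC mice 1 of 7 tested genes of the list was called in KPC against WT mice.

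Of the other homing genes, 4 of 6 tested rows rose in KPC mice, where 14.8% of all tested genes did. Among them were Cxcl12, a stromal chemokine (log2 fold change 1.50, edgeR adjusted p = 0.0154), Klf2, which maintains lymphocyte recirculation (0.90, edgeR adjusted p = 0.0298), and a scaffold row of Ccl21b (0.99, edgeR adjusted p = 0.00719). That Ccl21b row fell in KPC ASC KO against KPC mice (-1.05, SE 0.27, edgeR adjusted p = 0.0187), the only one of the 6 to do so. Of the 4 that rose 1 passed the filter only with KPC libraries. Without the 4 KPC mice none of 4 was called in KPC against WT mice.

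Among genes of addressin synthesis and venules, 2 of 6 tested rose in KPC mice and 1 fell, where 14.8% of all tested genes rose and 15.1% fell. Vcam1, an endothelial and stromal adhesion molecule, rose (log2 fold change 1.40, SE 0.37, edgeR adjusted p = 0.00697), as did Itgb7, a subunit of the MADCAM1 receptor (1.84, SE 0.63, edgeR adjusted p = 0.0317). Its partner Itga4 stood at 1.59 (edgeR adjusted p = 0.0677). Chst2, a sulfotransferase that modifies addressin sugars, fell to 47.3 ± 35.1 TMM CPM in KPC mice, against 161 ± 27.2 in WT mice (-1.89, SE 0.37, edgeR adjusted p = 0.00141). Its counts were 34 to 52 in KPC mice and 29 to 50 in WT mice, from libraries that were deeper in KPC mice. In KPC ASC KO against KPC mice Vcam1 (-1.89, edgeR adjusted p = 0.00632) and Itgb7 (-2.01, edgeR adjusted p = 0.0448) fell and Chst2 rose (1.91, edgeR adjusted p = 0.00683). Chst4, the sulfotransferase of high endothelial venules, had 3 counts in KPC ASC KO mice, 29 in KPC mice, 17 of them in mouse 89, and 0 in WT mice. Both Vcam1 and Itgb7 passed the filter only with KPC libraries. Without the 4 KPC mice none of 4 was called in KPC against WT mice.

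Partners of Cr2 in complement binding and the B cell coreceptor rose in 5 of 7 tested genes in KPC mice, where 14.8% of all tested genes did. C3, the source of its ligands, averaged 465 ± 82.8 TMM CPM in KPC mice and 160 ± 15.9 in WT mice (log2 fold change 1.54, SE 0.23, edgeR adjusted p = 8.05e-05). The complement regulator Cd55 (1.88, edgeR adjusted p = 0.00638) and the coreceptor protein Cd81 (0.55, edgeR adjusted p = 0.0127) rose as well. Of the 5 that rose, Cd55 and 1 other passed the filter only with KPC libraries. Without the 4 KPC mice 4 of 6 tested genes of this list were called higher in KPC mice. The summed level was 1150 to 1420 TMM CPM in KPC mice and 448 to 623 in WT mice, with no overlap.

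Markers of follicular dendritic and lymphoid stromal cells rose in 5 of 7 tested genes in KPC mice, and 3 of 7 fell in KPC ASC KO against KPC mice. Of all tested genes 14.8% rose in the first of these comparisons and 2.69% fell in the other. Grem1, of lymphoid and other fibroblasts, averaged 5.60 ± 3.99 TMM CPM in KPC ASC KO mice, 28.4 ± 17.0 in KPC mice and 4.69 ± 5.70 in WT mice. Its log2 fold change was 2.70 in KPC against WT mice (SE 0.77, edgeR adjusted p = 0.0118) and -2.21 in KPC ASC KO against KPC mice (SE 0.67, edgeR adjusted p = 0.0412). Icam1 (1.78, edgeR adjusted p = 0.00141), Vcam1 and Mfge8 (0.91, edgeR adjusted p = 0.0189) rose in KPC against WT mice. Grem1 had 0 to 5 counts in KPC ASC KO mice and 0 to 3 in WT mice and reached the filter's level only in KPC mice 40, 89, 145, 154 and 210, so that it was tested only because it was high in KPC mice. Of the 5 that rose 4 passed the filter only with KPC libraries. These genes are also made by fibroblasts, endothelium or macrophages outside lymphoid tissue. Without the 4 KPC mice none of 6 was called, while their median log2 fold change in KPC against WT mice was 1.09.

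Of 3 tested lymphatic endothelial markers, 2 were called higher in KPC mice, the member Ccl21a itself and the hyaluronan receptor Lyve1 (log2 fold change 1.57, SE 0.34, edgeR adjusted p = 0.00195). Lyve1 averaged 33.8 ± 16.1 TMM CPM in KPC ASC KO mice, 70.2 ± 30.1 in KPC mice and 23.5 ± 7.91 in WT mice, and fell in KPC ASC KO against KPC mice (-1.01, edgeR adjusted p = 0.0479). Without Ccl21a the lymphatic markers summed to 33.8 to 139 TMM CPM in KPC ASC KO mice, 109 to 173 in the 4 high KPC mice, 138, 86.4 and 107 in KPC mice 43, 48 and 210, and 20.6 to 84.8 in WT mice, so that the 4 mice overlapped the other 3. All 4 tested markers of mature dendritic cells, which carry CCR7, rose in KPC mice, with Cacnb3 first (2.21, SE 0.38, edgeR adjusted p = 0.00027) and Fscn1, an actin bundler, at 2.04 (edgeR adjusted p = 0.0184). Lyve1 and all 4 dendritic cell markers passed the filter only with KPC libraries, and 14.8% of all tested genes were called higher in KPC mice. Without the 4 KPC mice 0 of 3 lymphatic and 2 of 4 dendritic cell markers were called in KPC against WT mice.

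In KPC ASC KO against KPC mice no gene of any list was called without the 4 KPC mice, in a fit where almost no gene was called at all. Relb then had a log2 fold change of -0.12, Lyve1 of -0.32, Vcam1 of -1.54, Chst2 of 1.45 and the Ccl21b row of -0.82 (lowest edgeR adjusted p 0.189, for Vcam1). Birc3, Itgb7 and Grem1 no longer passed the filter on low counts.

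Of the germinal centre and follicular helper T cell genes only Bcl6, their master regulator, passed the filter, and it was not called (log2 fold change 0.70, edgeR adjusted p = 0.288). Il21, the helper cytokine, had 2 counts, both in KPC mouse 154. Fcer2a, of follicular B cells and follicular dendritic cells, had 53, 159, 143 and 149 counts in the 4 high KPC mice and 5, 2 and 5 in KPC mice 43, 48 and 210. It summed to 29 counts in KPC ASC KO mice and 14 in WT mice.

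Markers of sinus and splenic cells were taken as a check on the tissue sampled. Marco, a scavenger receptor of lymph node medullary and splenic marginal zone macrophages among others, had 173, 556, 295 and 281 counts in the 4 high KPC mice and 19, 8 and 8 in the other 3, against 5 to 24 in KPC ASC KO mice and 3 to 15 in WT mice. Siglec1, of sinus macrophages, ran from 13 to 30 counts in the 4 high KPC mice and from 1 to 7 in the other 3. The splenic list did not move one way. All 4 globin genes, the only ones of it tested, fell in KPC mice, led by Hba-a2 (log2 fold change -1.31, SE 0.36, edgeR adjusted p = 0.0111). Without the 4 KPC mice none of the 4 globin genes was called, but their log2 fold changes still ran from -1.66 to -1.08. Cd5l, a secreted macrophage protein, had 5, 56, 19 and 26 counts in the 4 high KPC mice and 3, 1 and 2 in the other 3, with 4 in all KPC ASC KO mice and 4 in all WT mice. Spic, a transcription factor of red pulp macrophages, had 5 counts in KPC ASC KO mice, 46 in KPC mice and 1 in WT mice. Macrophage markers in general rose in 5 of 7 tested genes, among them Csf1r (1.64, edgeR adjusted p = 0.000426), and in 4 of 7 without the 4 mice. Of 7 tested plasma cell markers 2 rose, Jchain (2.17, edgeR adjusted p = 0.0202) and Sdc1 (1.20, edgeR adjusted p = 0.0415), and 2 fell, Xbp1 (-0.76, edgeR adjusted p = 0.00239) and Derl3 (-1.89, edgeR adjusted p = 0.00678), secretory genes that acinar cells also use; without the 4 mice Sdc1 alone of 6 was called, and higher. All 16 acinar enzyme genes fell, led by Ctrc (-4.96, edgeR adjusted p = 2.76e-05). Without the 4 mice 3 of 16 were called lower, at a median log2 fold change of -1.92 over the 16. None of 3 adipocyte markers was called. Of all tested genes 14.8% were called higher and 15.1% lower in KPC against WT mice.

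**Figure D5:**
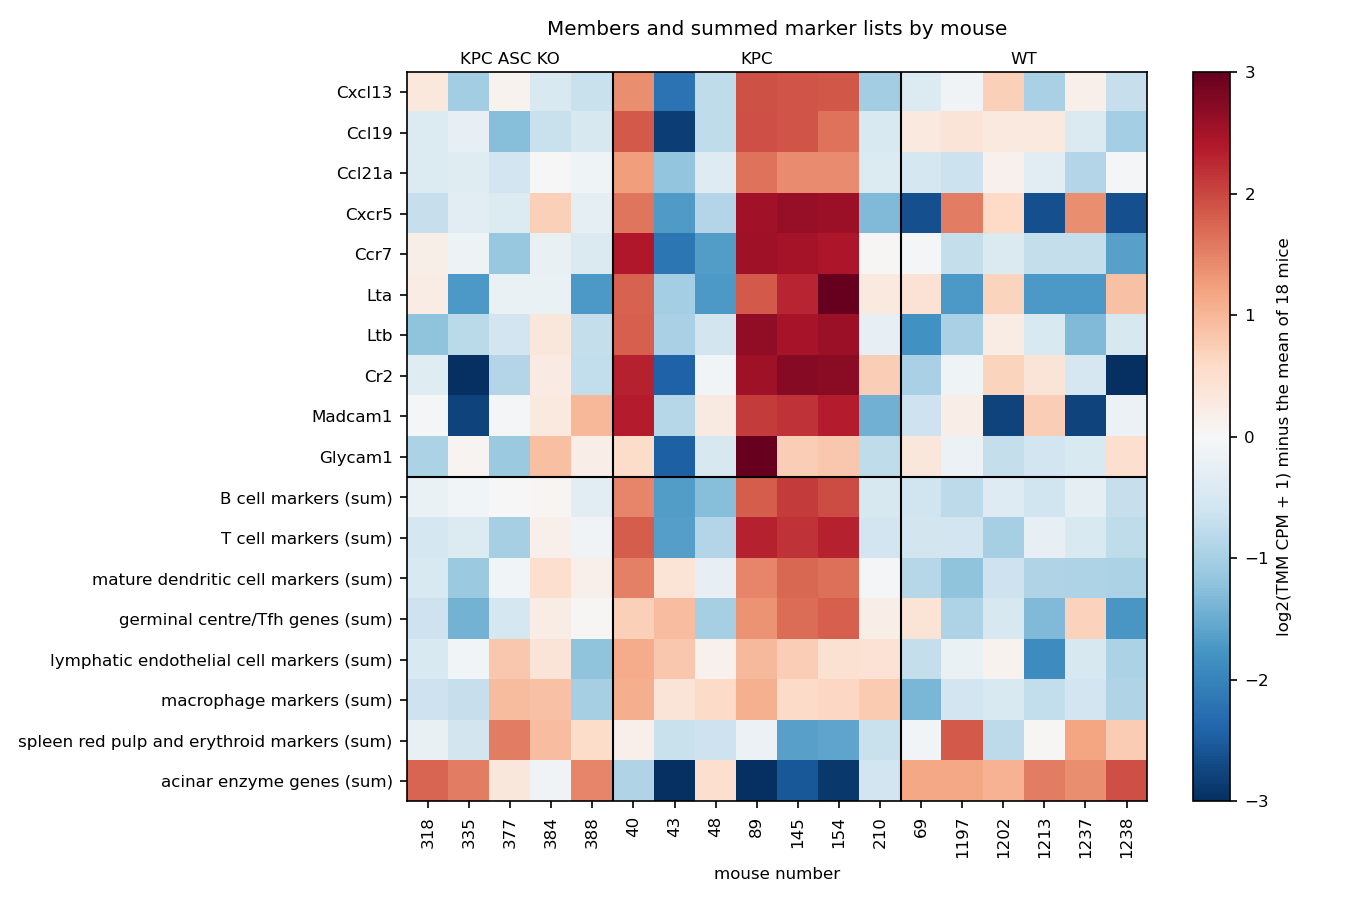
Log2(TMM CPM + 1) of the 10 members (upper rows) and of summed marker lists (lower rows, the lymphatic list without Ccl21a), each minus its mean over 18 mice, with KPC ASC KO mice left, KPC mice in the middle and WT mice right; red is above and blue below the mean. The columns of KPC mice 40, 89, 145 and 154 are red in the members and the B cell, T cell and dendritic cell sums, and blue in the acinar enzyme sum.

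A pancreatic lymph node collected with the gland and lymphoid aggregates inside it would both hold these genes, and the 2 cannot be told apart from counts of whole pancreas. Whether either accounts for the 4 KPC mice was not tested. In the data, B cell, T cell, dendritic cell and Marco levels were high in the same 4 mice as the members, KPC mice 43, 89, 145 and 154 had the lowest acinar enzyme sums (15000 to 34700 TMM CPM), and no KPC ASC KO mouse reached the 4 KPC mice in any member but Glycam1.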

How the data were processed

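Total RNA from 18 pancreas samples was primed at its poly(A) tail with a sample index and a UMI, pooled and sequenced from the cDNA, per the labels' protocols. The authors deposited whole-number UMI counts per gene, not normalised, in 1 table of 25651 genes. For the aligner, the annotation release and the UMI rule the sources used here give nothing; the submitters' processing notes name R 4.1.2, limma 3.50.0 and edgeR 3.36.0, with the builds GRCm38 and mm10. Library totals ran from 294077 to 1626977 counts, so that a gene with 1 or 2 counts in a library is measured only roughly.

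The counts as deposited were analysed here in edgeR 4.0.16 (R 4.3.3) with TMM scaling, filterByExpr at a minimum count of 10 in 5 libraries (6920 genes kept), and the robust quasi-likelihood F test over 18 mice in 3 groups with no covariate. Benjamini-Hochberg adjustment of p-values ran over all tested genes, with calls at an adjusted p under 0.05. Members under the filter were taken to a two-sided exact permutation test of log2(TMM CPM + 1), adjusted over the 17363 genes with at least 10 counts over all libraries. The tests were checked on simulated counts. Alternatives were other scalings, filters, DESeq2 1.42.0, limma-voom (limma 3.58.1), pseudocounts of 0.5 and 5, and mice left out. Marker lists, 16 with the members, were counted and summed without a set test.

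The members and lists were chosen with earlier results of these data known. Named are all members, up to 4 genes per list with the smallest p in KPC against WT mice, and the 4 genes nearest to each tested member; Il21, Fcer2a, Marco, Siglec1, Chst4, Fut7, Cd5l, Spic, Birc3 and Ltbr are list members named after their values were seen, and some genes that this rule would name are not reported here. Each library is 1 mouse, but the labels do not say whether mice share litters or batches. The p-values take the mice as independent, which could not be checked. Promoter sequences are from RefSeq (GRCm38.p6), and transcripts from GENCODE M21; gene positions are those of the deposited table.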

Additional observations from a re-analysis of the deposited data

Results flagged for a closer look

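Levels of 36 combinations of member row and group were screened for a mouse far from the rest of its group by Dixon's criterion, which chance meets in about 1 of 20 groups, and 4 met it.

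Glycam1 stood at 902 TMM CPM in KPC mouse 89, and the next KPC mouse had 135. Among 6698 genes with at least 30 counts in mouse 89, Glycam1 had the largest ratio of its level there to the highest level in any other mouse, 6.23, followed by Serpina1a at 2.84, Ngp at 2.55 and Il9r at 2.55. The milk protein genes Csn2 and Csn3 had 0 counts in mouse 89. They were hardly captured in any library, with 4 counts of Csn2 in KPC mouse 145 and 2 of Csn3 in KPC mouse 43. Their absence therefore does not set mouse 89 apart, and the source of its Glycam1 RNA was not tested.

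Ltb stood at 18.5 TMM CPM in KPC ASC KO mouse 384, and the next mouse of that group had 9.28. Cxcr5 stood at 9.27 TMM CPM in the same mouse, and the next had 4.22; the values rest on 10 and 5 counts. The scaffold row of Ccl19 stood at 3.40 TMM CPM in WT mouse 69 and at 0 in the other WT mice, on 1 count.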

How the results depend on the processing

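Of 639 values for single members under an alternative, 552 kept their direction and side of the threshold, 27 gained a call, 20 lost it and 40 changed sign. No paired analysis was possible because mouse numbers are not shared between the groups.

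Leaving out KPC mice 40, 89, 145 and 154 brought the genes called to 752 in KPC against WT mice and to 1 in KPC ASC KO against KPC mice, with 3553 and 1501 when total counts set the scale. In KPC against WT mice the log2 fold changes without these mice were -1.40 for Ccl19, -1.34 for Cxcl13, -1.08 for Glycam1 and -0.27 for Ccl21a. With total counts they were -0.30, -0.22 and -0.0023 for Ccl19, Cxcl13 and Glycam1. Cxcr5 and Lta were not tested in that edgeR fit. Their differences in mean log2(TMM CPM + 1), a measure that shrinks at low counts, were -0.57 and -0.29. In KPC ASC KO against KPC mice the log2 fold changes were 0.70 for Ccl19, 0.35 for Ccl21a, 1.24 for Cxcl13 and 1.21 for Glycam1. With total counts they were 0.29 for Cxcl13 and 0.48 for Glycam1. The differences in mean log2(TMM CPM + 1) were 0.82 for the scaffold row of Ccl19, 1.10 for Cxcr5, 0.10 for Lta and 0.37 for Madcam1. With the B cell covariate Ccl19 (-0.91), Cxcl13 (-0.72) and Glycam1 (-0.51) changed sign in KPC against WT mice, Cxcl13 (0.10) and Glycam1 (0.086) in KPC ASC KO against KPC mice, and Ccl21a (-0.24), Ccr7 (-0.34) and Glycam1 (-0.43) in KPC ASC KO against WT mice. Limma-voom called neither Ccr7 (1.39) nor Ccl21a (0.99) in KPC against WT mice and gave Glycam1 -0.055 in KPC ASC KO against WT mice, and total counts gave Cxcl13 0.072 there.

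Total counts brought the genes called to 5684 in KPC against WT mice, to 5193 in KPC ASC KO against KPC mice and to 1 in KPC ASC KO mice set against WT mice, and the members called by the exact permutation test to 6 and 1 of 12 rows in the first and next of these. Fitting the compared groups alone gave 192 genes in KPC ASC KO against KPC mice and 8 in KPC ASC KO against WT mice. In the last comparison DESeq2 gave 8, no filter 12, a filter at 10 counts over all libraries 1 and the B cell covariate 14. Leaving out single mice gave 1706 to 2325, 157 to 1068 and 0 to 1 genes in the 3 comparisons, the last without KPC ASC KO mouse 318 or 388 or WT mouse 69, and 0 to 0 member rows by the exact test. In KPC ASC KO against KPC mice the count moved by over 1.5 times without KPC mouse 48 (1068), 89 (325), 145 (335) or 154 (334) or KPC ASC KO mouse 318 (191), 335 (157) or 388 (205). In KPC ASC KO against WT mice single mice moved log2 fold changes from -0.031 to 0.17 for Ccl21a, -0.31 to 0.10 for Cxcl13 and -0.30 to 0.31 for Glycam1. They moved differences in mean log2(TMM CPM + 1) from -0.86 to 0.18 for Cr2, -0.43 to 0.089 for Lta and -0.025 to 0.41 for Ltb. The cause of these shifts was not tested. Depth limits Lta, Cxcr5, Cr2 and Madcam1, with at most 5 counts in any KPC ASC KO or WT mouse.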

Other observations

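Rgs13, a regulator of G protein signalling in germinal centre B cells and also in tuft cells, had 186 counts in KPC mouse 43 and at most 31 in the other KPC mice, although mouse 43 was the lowest KPC mouse in 10 of the 12 member rows. Its level was 0 to 11.1 TMM CPM in KPC ASC KO mice, 5.31 to 57.8 in KPC mice and 0 to 13.8 in WT mice. Tnfsf11, the lymphoid tissue inducer cytokine RANKL, had 10, 18, 20 and 28 counts in KPC mice 40, 89, 145 and 154 and 1 each in KPC mice 43, 48 and 210, against 1 count over all KPC ASC KO mice and 2 over all WT mice. Bst1, a stromal ectoenzyme, was at 0 to 5.57 TMM CPM in KPC ASC KO mice, 3.42 to 21.3 in KPC mice and 0 to 5.13 in WT mice. Prox1, the lymphatic transcription factor, averaged 12.4 ± 9.17 TMM CPM in KPC ASC KO mice (SD, n = 5), 9.97 ± 4.96 in KPC mice (SD, n = 7) and 3.98 ± 3.18 in WT mice (SD, n = 6). These genes were singled out after their values were seen, and none was tested.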
